A study of Homo sapiens with 8 samples.

Results

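Hypoxia-inducible factor (HIF) is the transcription factor through which cells answer a shortage of oxygen, and 10 genes of its pathway were followed here in human keratinocytes whose mitochondria had been poisoned. They are the 3 HIF subunits HIF1A, EPAS1 and ARNT, the 2 prolyl hydroxylases EGLN1 and EGLN3, and 5 target genes outside glycolysis, CA9, ANKRD37, KDM3A, NDRG1 and FUT11. The genes were chosen and matched by symbol, and each had 1 row of a table of 61806 genes. All 10 had enough reads to be tested.

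N/TERT-1 is an immortalized line of epidermal keratinocytes, wild type in all samples. Cells of 4 independent experiments per condition were treated for 4 hours with ethanol, the solvent, or with O/A, a mixture of oligomycin and antimycin A, which inhibit the mitochondrial ATP synthase and complex III of the respiratory chain. For imaging of N/TERT cells with a cholesterol reporter, over a shorter treatment, oligomycin was used at 10 µM and antimycin A at 4 µM. The sample labels give neither dose nor time. The 8 mRNA libraries come from a single line grown in culture, so nothing here speaks for keratinocytes of other donors or for skin. Between 17210404 and 20999927 fragments were counted per library. All 8 keratinocyte markers examined, such as KRT5, KRT14 and TP63, were above 1 FPKM in every library. The summed level of these markers was 4597 to 4921 FPKM in ethanol and 4100 to 4272 FPKM in O/A. The 6 fibroblast markers summed to 2.40 to 2.94 FPKM in ethanol and 2.44 to 2.68 FPKM in O/A, nearly all of it COL1A1, and COL1A2 was listed at 0. The 5 melanocyte, 5 immune and 4 endothelial markers summed to at most 1.81, 0.54 and 0.08 FPKM in any library, and MLANA, TYR and PTPRC were listed at 0. The part of these marker levels in the results was not tested.

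A HIF dimer joins an oxygen-labile alpha subunit, HIF-1α from HIF1A or HIF-2α from EPAS1, to the stable partner that ARNT encodes. In the presence of oxygen, the EGLN enzymes hydroxylate prolines of the alpha subunit, the von Hippel-Lindau protein binds the hydroxylated form, and the proteasome destroys it. The control of HIF thus lies largely in the stability of a protein, which these mRNA data do not measure. EGLN1, EGLN3 and the target genes are themselves induced by HIF when oxygen is low, and the dimer binds short DNA elements with the core letters ACGTG or GCGTG.

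With O/A, the mRNAs of both alpha subunits rose and those of EGLN1 and EGLN3 fell. Outside the 10 genes, the HIF hydroxylases EGLN2 (log2(FC) 0.02) and HIF1AN (0.14) were not called. Of the 10 genes, 3 were upregulated (HIF1A, EPAS1 and NDRG1), 5 were downregulated (EGLN1, EGLN3, ANKRD37, KDM3A and FUT11) and 2 were called in neither direction (ARNT and CA9). A call required an absolute log2(FC) above 0.25 together with an adjusted p-value no higher than 0.05, from the quasi-likelihood (QL) test of edgeR and adjusted by Benjamini-Hochberg across 14893 genes. The response to O/A was broad, since 34.7% of all genes tested were called, 15.8% upregulated and 18.9% downregulated. The 8 of 10 called here stand beside that share as a description, and on the adjusted p-value alone the same 8 passed, beside 53.7% of all genes. The median log2(FC) of the 10 genes was -0.26, beside -0.0004 over all genes tested. The groups did not overlap for 8 of the 10 genes, beside 47.6% of all genes tested, with 3 genes higher in every O/A library (22.8% of all genes) and 5 lower (24.8% of all genes). Annotated pseudogenes of HIF1A, EGLN1, EGLN3 and KDM3A had at most 1 count in any library. Since the RNA comes from whole cultures, fewer cells with a transcript and less of it per cell cannot be told apart.

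**Figure D1:**
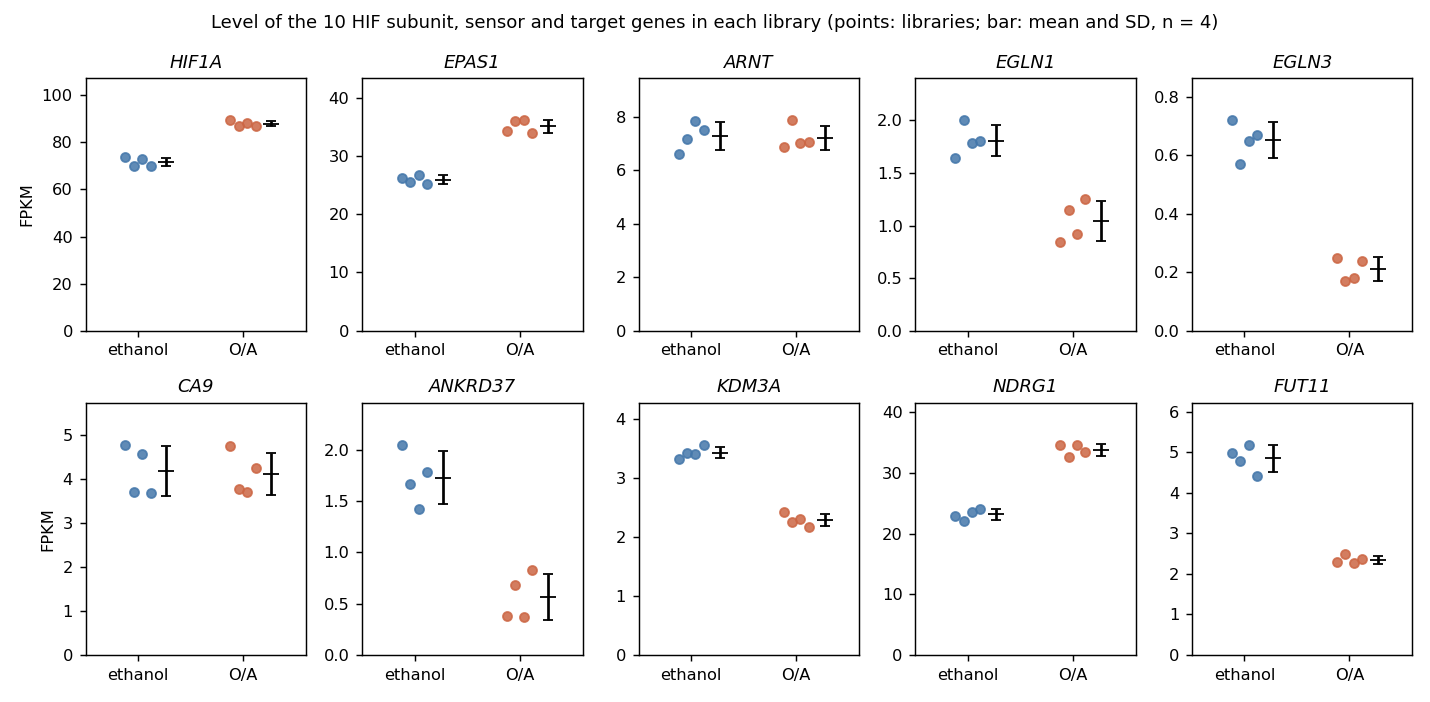
FPKM (counted fragments scaled to exonic length and library total) of each of the 10 genes in the 4 ethanol and 4 O/A libraries, with each y axis starting at 0; points are libraries and the bar shows the mean and SD. HIF1A, EPAS1 and NDRG1 sit higher in O/A, the 5 downregulated genes sit lower, and ARNT and CA9 overlap.

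The promoters of these genes show where the HIF core letters lie. RefSeq windows of 300 bases (250 before and 50 after a transcription start, build GRCh38.p14) were found for 8 of the 10 genes, in 10 windows, because HIF1A and KDM3A have 2 each. Either strand was searched for ACGTG and GCGTG, and 6 of the 8 genes held a match, beside 52.4% of 27305 genes with a window. With ACGTG alone, 3 of the 8 genes held a match, beside 24.9% of genes. The stretches of 30 bases around the matches are given because they carry these letters. They are written 5′ to 3′ on the strand of the gene, with the core letters in capitals.
EGLN1, chr1:231422288-231422317, minus strand: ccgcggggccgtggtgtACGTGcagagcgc
ANKRD37, chr4:185396676-185396705, plus strand: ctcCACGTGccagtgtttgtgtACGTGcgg
CA9, chr9:35673897-35673926, plus strand: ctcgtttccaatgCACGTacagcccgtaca
KDM3A, chr2:86441332-86441361, plus strand: tccgggaggctgtGCGTGtcttgtgagagc
HIF1A, chr14:61695296-61695325, plus strand: ttggctgagagcgGCGTGggctggggtggg
EPAS1, chr2:46297277-46297306, plus strand: ggggcctgccggcGCGTGcccgcccacaca

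ANKRD37 held the most matches, 3 of ACGTG, of which 2 lie on opposite strands within the letters CACGTG. This palindrome is also the binding element of MYC and related factors, and it occurs in the windows of 8.77% of genes. In CA9 the match lies on the opposite strand and begins 18 bases upstream of the start, and in EGLN1 it begins 13 bases upstream. No match was found in the windows of ARNT and EGLN3, which says only that these letters are not in these 300 bases. The match of KDM3A lies in both of its overlapping windows, 26 and 116 bases upstream of their starts. Matches occurred in genes that fell (EGLN1, ANKRD37, KDM3A), in genes that rose (HIF1A, EPAS1) and in CA9, which was not called.

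**Figure D2:**
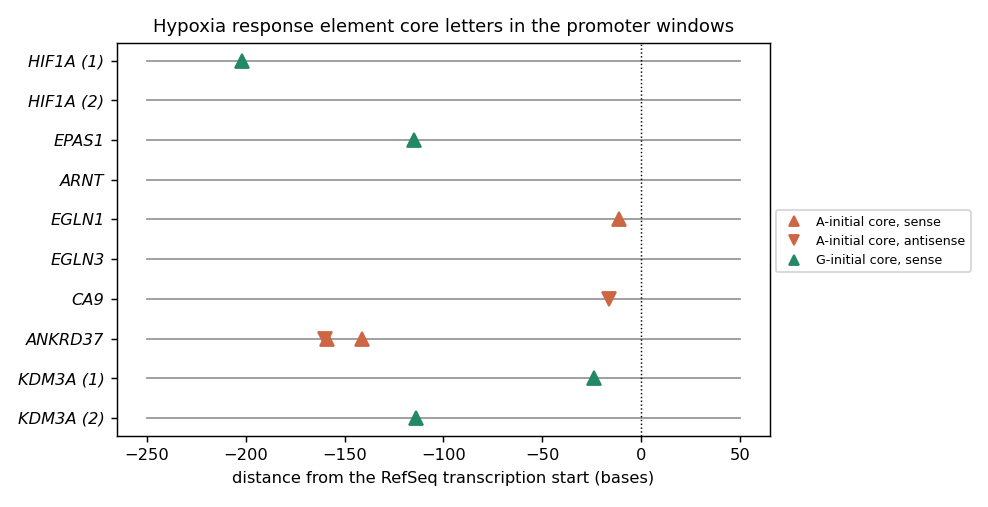
Position of the core letters in the RefSeq promoter windows of 8 genes, in bases from the transcription start; orange triangles mark ACGTG, green triangles GCGTG, pointing up for the strand of the gene and down for the other strand. The matches of EGLN1 and CA9 lie within 20 bases of the start, and those of ANKRD37 between 143 and 162 bases upstream.

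HIF1A, which encodes the alpha subunit found in most cell types, was the most abundant of the 10 transcripts. All positions are in GRCh38, where HIF1A lies on chromosome 14 from 61695513 to 61748259, on the plus strand (ENSG00000100644). Its level was 73.6, 69.9, 73.0 and 70.2 FPKM in ethanol replicates 1 to 4 and 89.4, 87.1, 88.3 and 87.1 FPKM in O/A replicates 1 to 4. Every O/A library lay above every ethanol library, and the spread within a condition was small, with a coefficient of variation of 2.66% in ethanol and 1.23% in O/A. The log2(FC) was 0.34 (standard error 0.026, edgeR QL adjusted p = 2.09e-16), a rise of 26.6%. Quantile normalization took the log2(FC) to 0.23, within the threshold, while the adjusted p was still 2.81e-11 with limma.

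EPAS1 encodes HIF-2α, the alpha subunit best known from endothelium and from the control of erythropoietin. Its locus (ENSG00000116016) spans 46293667 to 46386697 on the plus strand of chromosome 2. In ethanol it had 26.3, 25.5, 26.8 and 25.3 FPKM, and in O/A 34.4, 36.0, 36.2 and 33.9 FPKM. The conditions did not overlap, and the log2(FC) was 0.48 (standard error 0.029, edgeR QL adjusted p = 2.18e-20), a rise of 39.6%.

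ARNT, also called HIF-1β, is the partner shared by both alpha subunits and by the aryl hydrocarbon receptor. On chromosome 1, it runs from 150809713 to 150876708 on the minus strand (ENSG00000143437). Its level was 6.6, 7.16, 7.85 and 7.5 FPKM in ethanol and 6.85, 7.86, 7.03 and 7.04 FPKM in O/A. The libraries of both conditions overlapped, with a log2(FC) of 0.03 (edgeR QL adjusted p = 0.639). The 95% interval of the log2(FC) ran from -0.069 to 0.128, which lies within the fold change threshold on both sides.

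Per length, the mRNAs of both alpha subunits stood above that of ARNT in either condition. On the same scale, HIF1A mRNA stood well above EPAS1 mRNA in both conditions, at a ratio of EPAS1 to HIF1A of 0.362 in ethanol and 0.399 in O/A. In single libraries the log2 ratio of EPAS1 to HIF1A spanned -1.49 to -1.45 with ethanol and -1.38 to -1.27 with O/A, and the conditions did not overlap. The mean log2 ratio was -1.46 ± 0.018 in ethanol and -1.33 ± 0.052 in O/A (SD, n = 4 each; exact two-sided permutation test, p = 0.0286, the smallest that 4 libraries against 4 allow; 0.0571 adjusted over the 3 ratios compared). The log2 ratio of ARNT to HIF1A was -3.30 ± 0.122 in ethanol and -3.61 ± 0.101 in O/A (SD, n = 4 each; exact permutation test, p = 0.0571, and 0.0571 adjusted). Here 1 ethanol library, replicate 1 at -3.48, lay below 1 O/A library, replicate 2 at -3.47. None of the 3 ratios passed after adjustment. EPAS1 to HIF1A, already at the smallest p, could have passed only if another ratio had reached it too.

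EGLN1 and EGLN3 both fell. EGLN1 encodes PHD2, regarded as the main HIF prolyl hydroxylase at normal oxygen. The gene (ENSG00000135766) occupies 231363751 to 231422287 of chromosome 1, minus strand. Its level was 1.64, 2.00, 1.79 and 1.80 FPKM in ethanol and 0.84, 1.15, 0.92 and 1.25 FPKM in O/A. All O/A libraries lay below all ethanol libraries, replicates 1 and 3 lowest, and the coefficient of variation was wider in O/A (18.5%) than in ethanol (8.17%). The log2(FC) was -0.75 (standard error 0.109, edgeR QL adjusted p = 4.97e-08), a decrease to 0.593-fold. An unnamed protein-coding gene on the same strand (ENSG00000287856) shares 3004 of the 5381 exonic bases of EGLN1 and was listed at 0 in every library. Reads in the shared stretch may have been left uncounted, so the level of EGLN1 per length is uncertain.

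EGLN3 encodes PHD3, a hydroxylase known for its strong induction by HIF. Its locus (ENSG00000129521) spans 33924227 to 34462774 on the minus strand of chromosome 14. Per length it was the rarest of the 10 transcripts, although ANKRD37 had fewer counts in each ethanol replicate. EGLN3 had 98, 74, 83 and 104 counts in ethanol (0.72, 0.57, 0.65 and 0.67 FPKM) and 33, 24, 26 and 31 counts in O/A (0.25, 0.17, 0.18 and 0.24 FPKM). Every O/A library lay below every ethanol library, and the log2(FC) was -1.59 (standard error 0.165, edgeR QL adjusted p = 6.87e-12), a decrease to 0.332-fold. Only 85 of the 14893 genes tested had a lower log2(FC). SPTSSA, which lies within the long annotated span of EGLN3 on the same strand, shares none of its exonic bases.

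EGLN3 fell further than EGLN1 on average, and their 95% intervals of log2(FC) did not overlap (-1.92 to -1.26 and -0.97 to -0.54). The test of their ratio did not pass, with a p above the smallest that 4 libraries against 4 allow. The log2 ratio of EGLN3 to EGLN1 was -1.47 ± 0.257 in ethanol and -2.31 ± 0.418 in O/A (SD, n = 4 each; exact permutation test, p = 0.0571, and 0.0571 adjusted over the 3 ratios). O/A replicate 1, at -1.75, overlapped ethanol replicate 2, at -1.81. On the log2(FPKM + 1) scale, which compresses low values, the log2(FC) was -0.46 for EGLN1 and -0.45 for EGLN3, both still past the thresholds. EGLN2, the third prolyl hydroxylase of the family and the one not known for induction by hypoxia, stood at 1.32 ± 0.175 FPKM with ethanol and 1.30 ± 0.190 FPKM after O/A (SD, n = 4 each). Its log2(FC) was 0.02 (95% interval -0.190 to 0.229, edgeR QL adjusted p = 0.893).

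**Figure D3:**
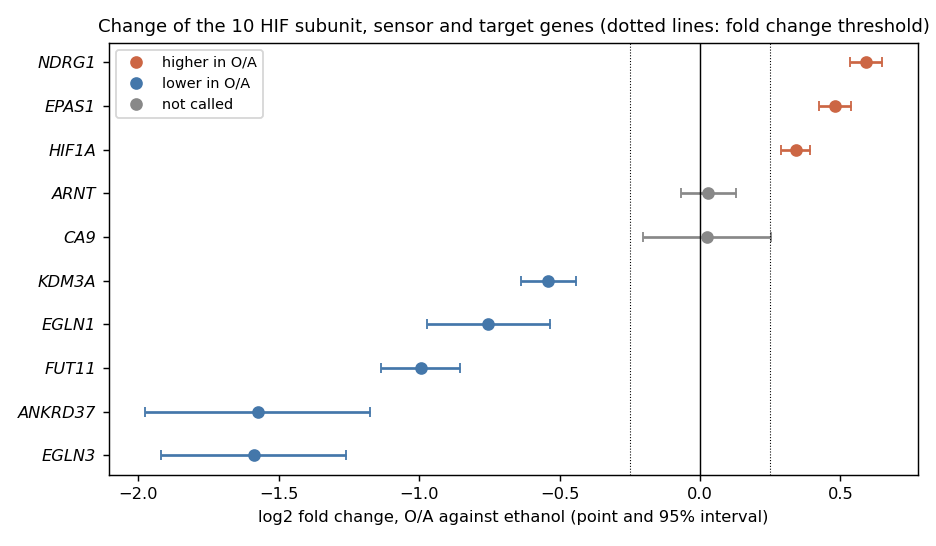
Log2(FC) of the 10 genes, O/A against ethanol, with the 95% interval from edgeR's quasi-likelihood fit; dotted lines mark the fold change threshold of 0.25. EGLN3 (-1.59) and ANKRD37 (-1.57) fell most, NDRG1 (0.59) rose most, and the intervals of ARNT and CA9 include 0.

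Among the 5 target genes 3 fell, 1 rose and 1 was not called. ANKRD37, a small ankyrin repeat protein and a recurrent member of hypoxia signatures, fell most. On chromosome 4, it runs from 185396021 to 185400628 on the plus strand (ENSG00000186352). It had 85, 66, 55 and 84 counts in ethanol (2.05, 1.67, 1.42 and 1.78 FPKM) and 15, 29, 16 and 33 counts in O/A (0.38, 0.68, 0.37 and 0.83 FPKM). The conditions did not overlap, although the O/A libraries scattered, with replicates 1 and 3 below replicates 2 and 4 and a coefficient of variation of 40.3%. The log2(FC) was -1.57 (standard error 0.198, edgeR QL adjusted p = 3.51e-09), and it was -0.81 on log2(FPKM + 1). UFSP2 on the opposite strand shares 909 of the 2253 exonic bases of ANKRD37 and had 394 to 511 counts per library, and whether counting used strand is not given in the sources used here. The value of ANKRD37 is therefore uncertain, while UFSP2 itself had a log2(FC) of 0.06 (edgeR QL adjusted p = 0.378).

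FUT11, a fucosyltransferase of the Golgi and endoplasmic reticulum, fell with little spread between libraries. The gene (ENSG00000196968) occupies 73772276 to 73780251 of chromosome 10, plus strand. Its level was 4.99, 4.79, 5.18 and 4.41 FPKM in ethanol and 2.28, 2.48, 2.26 and 2.37 FPKM in O/A. The conditions lay far apart compared with their spread, and the log2(FC) was -0.995 (standard error 0.070, edgeR QL adjusted p = 1.67e-17). A transcript without a gene symbol on the other strand (ENSG00000279689) shares 587 of its 4925 exonic bases and held 20 to 48 counts per library, against 199 to 456 for FUT11. It had a log2(FC) of -0.54 (edgeR QL adjusted p = 0.0259), the same direction as FUT11, so the value of FUT11 is uncertain.

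KDM3A, a demethylase of histone H3 lysine 9 that itself uses oxygen, fell less. Its locus (ENSG00000115548) spans 86440647 to 86492716 on the plus strand of chromosome 2. Its level was 3.33, 3.43, 3.42 and 3.57 FPKM in ethanol and 2.42, 2.25, 2.31 and 2.18 FPKM in O/A. The libraries of each condition were close together, and the log2(FC) was -0.54 (standard error 0.048, edgeR QL adjusted p = 6.75e-14).

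NDRG1, a stress-responsive gene of growth arrest and differentiation, went the other way. On chromosome 8, it runs from 133237175 to 133302022 on the minus strand (ENSG00000104419). It had 22.9, 22.0, 23.6 and 24.2 FPKM in ethanol and 34.7, 32.6, 34.6 and 33.5 FPKM in O/A. Every O/A library lay above every ethanol library, and the log2(FC) was 0.59 (standard error 0.028, edgeR QL adjusted p = 7.92e-24), a rise of 50.5%, the largest among the 10 genes.

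CA9, the membrane-bound carbonic anhydrase IX that is widely used as a marker of hypoxia, was not called. The gene (ENSG00000107159) occupies 35673928 to 35681159 of chromosome 9, plus strand. It had 140, 104, 125 and 123 counts in ethanol (4.77, 3.70, 4.55 and 3.67 FPKM) and 134, 113, 114 and 120 counts in O/A (4.74, 3.76, 3.70 and 4.24 FPKM). The conditions overlapped throughout, with a log2(FC) of 0.03 (95% interval -0.202 to 0.253, edgeR QL adjusted p = 0.872). A change of CA9 within this interval was not detectable at this depth. ARHGEF39 on the opposite strand shares 571 of the 1598 exonic bases of CA9, had 78 to 263 counts per library and fell by 1.36 on the log2 scale (edgeR QL adjusted p = 8.91e-17), so the value of CA9 is uncertain.

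The rising and falling genes stood at different levels. HIF1A, EPAS1 and NDRG1 were at 71.7 ± 1.91, 26.0 ± 0.709 and 23.2 ± 0.915 FPKM in ethanol, whereas the highest of the 5 falling genes was FUT11 at 4.84 ± 0.329 FPKM (SD, n = 4 each). ARNT, at 7.28 ± 0.532 FPKM, and CA9, at 4.17 ± 0.570 FPKM, were the genes not called. In the order of ethanol levels, the libraries of EPAS1 (25.3 to 26.8 FPKM) and NDRG1 (22.0 to 24.2 FPKM) did not overlap, nor did those of HIF1A, EPAS1, NDRG1 and ARNT with the genes below each. FUT11 and CA9 overlapped, as did EGLN1 and ANKRD37, while CA9 and KDM3A (3.33 to 3.57 FPKM) were separate. The levels of FUT11, CA9, EGLN1 and ANKRD37 are uncertain because of shared exonic bases, and so is their place in this order. Over all genes tested, of 2098 genes at or above 20 FPKM in ethanol, 11.8% rose and 12.3% fell, and of 8765 genes below 6 FPKM, 16.4% rose and 20.5% fell.

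Among the other regulators of HIF, CITED2, SIAH1, SIAH2 and CREBBP rose. Of 15 genes listed, 14 were tested, and 4 of these rose, beside 15.8% of all genes, with a median log2(FC) of 0.04. On the adjusted p-value alone 6 of the 14 passed, beside 53.7% of all genes. CITED2, which competes with HIF for the coactivators CBP and p300, rose from 7.90 ± 0.528 to 12.3 ± 0.324 FPKM (SD, n = 4 each), a log2(FC) of 0.68 (edgeR QL adjusted p = 7.75e-15). SIAH1 (log2(FC) 0.57) and SIAH2 (0.55), ubiquitin ligases that act on the EGLN enzymes among other proteins, also rose. The remaining gene called was CREBBP, which encodes CBP (0.39, edgeR QL adjusted p = 2.25e-04), named here after its value was seen. VHL, the ubiquitin ligase subunit that recognizes hydroxylated HIF, had a log2(FC) of -0.02 (95% interval -0.099 to 0.062, edgeR QL adjusted p = 0.732). HIF1AN, the asparagine hydroxylase that blocks coactivator binding, had 0.14 (edgeR QL adjusted p = 5.19e-04), within the fold change threshold. ARNT2, the neural relative of ARNT, had -0.28 (95% interval -0.554 to 0.0014, edgeR QL adjusted p = 0.0878), and HIF3A had at most 1 count in any library and was not tested.

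Other HIF target genes outside glycolysis moved in both directions, as did the genes tested as a whole. Of 29 listed, 24 were tested, and 3 rose and 6 fell, beside 15.8% and 18.9% of all genes, with a median log2(FC) of 0.01. The largest falls were those of RAB20, a small GTPase, with a log2(FC) of -1.77 (edgeR QL adjusted p = 1.46e-08), ADM, the vasodilator peptide adrenomedullin (-1.08), and HILPDA, an inhibitor of lipolysis on lipid droplets (-0.70). RAB20 had only 10 to 33 counts per O/A library, and its FPKM scattered there with a coefficient of variation of 51.9%. ADM went from 14.5 ± 0.868 to 6.65 ± 0.322 FPKM and HILPDA from 5.95 ± 0.668 to 3.53 ± 0.251 FPKM (SD, n = 4 each). The 3 that rose were TFRC, the transferrin receptor (0.71), P4HA1, a collagen prolyl hydroxylase subunit (0.42), and MXI1, an antagonist of MYC (0.27), and 2 rises were called without O/A replicate 2. TFRC mRNA is also known to be stabilized by the iron regulatory proteins.

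Among the glycolytic targets of HIF, few genes passed both thresholds, and small decreases outnumbered increases. Of 18 tested, 2 rose and 2 fell past both thresholds, beside 15.8% and 18.9% of all genes, and the median log2(FC) was -0.12. ENO2, an enolase (0.65), and SLC16A3, the lactate exporter MCT4 (0.31), rose, and PFKFB4, a regulator of phosphofructokinase (-0.41), and PDK1, the kinase that restrains pyruvate dehydrogenase (-0.32), fell, each with an edgeR QL adjusted p no higher than 3.87e-07. On the adjusted p-value alone 13 of the 18 passed, 2 higher and 11 lower, and 9 of them lay within the fold change threshold. Over all 14893 genes tested, 3868 were higher and 4131 lower on the adjusted p-value alone, 53.7% together.

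HIF shares 4 listed targets with ATF4, the transcription factor of the integrated stress response. Of these, 3 had at least 10 counts in every library (VEGFA, STC2 and DDIT4), and these 3 rose, beside 15.8% of all genes. The list was chosen with earlier results of these data known, so this count is a description. Its genes also lie outside glycolysis, and the counts of other targets outside glycolysis leave them out. VEGFA, the angiogenic growth factor, went from 6.17 ± 0.189 to 39.8 ± 1.21 FPKM (SD, n = 4 each), a log2(FC) of 2.74 (standard error 0.030, edgeR QL adjusted p = 1.13e-51). STC2, a secreted glycoprotein, had a log2(FC) of 4.32 and DDIT4, an inhibitor of mTORC1, of 0.50. VLDLR, a lipoprotein receptor, had 6 to 10 counts per ethanol library and 51 to 76 in O/A (log2(FC) 2.92), and it met the count minimum only through the O/A libraries, so its call is not counted. With VLDLR kept in the list, 3 of the 4 were called on log2(FPKM + 1), beside 3923 of 14893 genes tested.

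**Figure D4:**
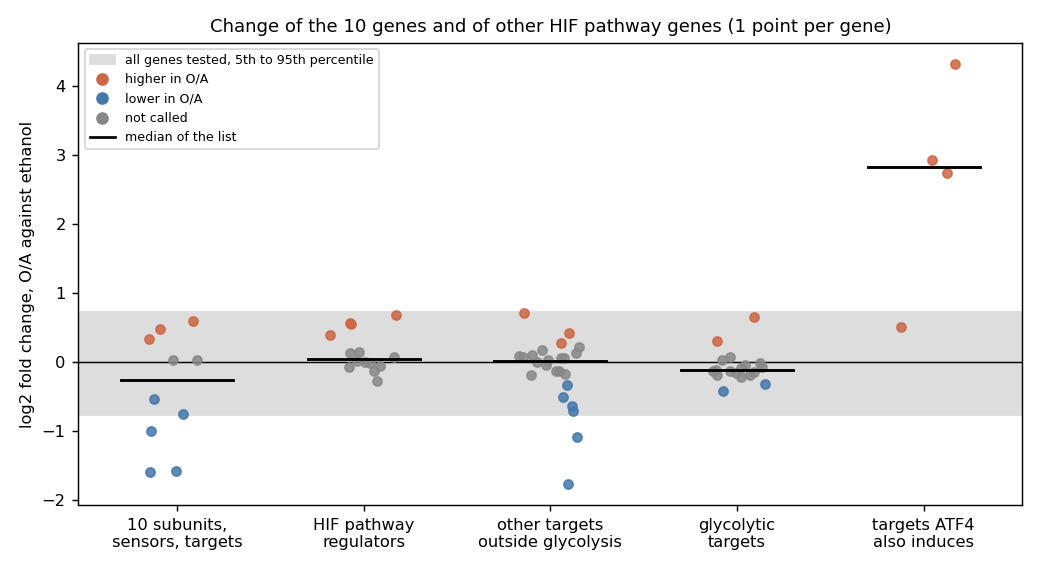
Log2(FC), O/A against ethanol, of the 10 genes and of the tested genes in 4 further lists; each point is a gene, black bars are list medians, and the grey band holds the 5th to 95th percentile of all genes tested (-0.76 to 0.72). The medians are -0.26 for the 10 genes, 0.04 for regulators, 0.01 for targets outside glycolysis and -0.12 for glycolytic targets, and the bar of the ATF4 list includes VLDLR, which met the count minimum only through O/A.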

How the data were processed

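The authors selected polyadenylated RNA, sequenced paired ends, aligned to GRCh38.p13 with HISAT2 2.0.1 and counted on Ensembl genes with HTSeq 0.6.1. The deposited counts are raw, and the Ensembl release and strand setting are not given in the sources used here. The deposited FPKM values were within 0.005 of the count divided by exonic size and library total. A second deposited table holds the authors' DESeq2 fold changes and p-values and was not used.

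Groups came from the sample titles. Counts of genes with at least 10 in at least 4 libraries were scaled by TMM and tested with edgeR 4.0.16 (robust quasi-likelihood, R 4.3.3), standard errors being the log2(FC) divided by the root of F and intervals covering 95%. The 3 ratios used exact permutation tests (scipy 1.17.1). Alternatives were DESeq2 1.42.0, limma 3.58.1 on log2(FPKM + 0.1), log2(FPKM + 1) and quantile-normalized values, median-ratio scaling, no filter, a replicate block, each library left out, and other thresholds.

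The 10 genes and the 4 further lists were chosen with earlier results of these data known. Of the lists, EGLN2, HIF1AN, VHL, ARNT2, HIF3A, the ATF4 list and up to 3 largest rises and falls per list are named. Symbols absent from the table were filled by gene ID for 20380 of 20417 rows. All 10 genes had the same ends in GENCODE v44. Protein sequences were not used here. On simulated counts of 14893 genes, 62, 64 and 74 genes were changed by 0.6, 1 and 2 on the log2 scale. Of these, edgeR recovered 72.6%, 92.2% and 98.6%, with 3 false calls. Far fewer genes were changed there than the 34.7% called in the data, and changes smaller than 0.6 were not simulated.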

Additional observations from a re-analysis of the deposited data

Results flagged for a closer look

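Among 68 groups of 4 libraries (the tested genes named by rule, which leaves out CREBBP, and the 3 ratios, in each condition), 1 library lay far from the other 3 in 3 groups, where chance gives about 3.4. None of them belongs to the 10 genes. As TMM-scaled CPM (counts scaled to library size), RAB20 had 2.96 in ethanol replicate 3 against 3.87 to 4.00 in the other ethanol libraries. SLC16A3 had 45.4 in ethanol replicate 2 against 47.2 to 47.3, and TFRC had 352.9 in ethanol replicate 2 against 364.0 to 365.8. Their causes were not tested.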

How the results depend on the processing

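Under every other scaling, filter, tool and pseudocount tried, the 8 genes called kept their direction, and among these settings the only call lost was that of HIF1A under quantile normalization (log2(FC) 0.23), which left 7 of the 10. With each library left out in turn, 8 of the 10 genes were called every time, with a log2(FC) of 0.33 to 0.36 for HIF1A, 0.47 to 0.50 for EPAS1, 0.57 to 0.62 for NDRG1, -0.85 to -0.66 for EGLN1, -1.68 to -1.49 for EGLN3, -1.81 to -1.41 for ANKRD37, -0.56 to -0.51 for KDM3A and -1.03 to -0.96 for FUT11. The values of ARNT and CA9 lay near 0 and changed sign: ARNT was -0.015 on log2(FPKM + 0.1), -0.014 on log2(FPKM + 1) and -0.0073 to 0.070 without 1 library, and CA9 was -0.019 on log2(FPKM + 0.1), -0.016 on log2(FPKM + 1) and -0.044 to 0.104 without 1 library. Neither was called in any of them, and the cause was not tested.

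Counts moved with the fold change threshold by construction. Without it, 7999 genes were called in all, 16 of the targets outside glycolysis and 13 of the glycolytic targets. Above 0.5 these were 2636 in all, 6 of the 10 genes and 1 glycolytic target, and above 1 they were 797 in all, 2 of the 10 genes, 2 targets outside glycolysis, 0 regulators and 0 glycolytic targets. Quantile normalization called 8 of the 18 glycolytic targets, 2 higher and 6 lower, and the cause was not tested. Beside these, it called 5195 of all 14893 genes, 2449 higher and 2746 lower. Of the 3 rises and 6 falls among targets outside glycolysis, 2 rises and 6 falls were called on log2(FPKM + 0.1) and without O/A replicate 2, and 2 rises and 5 falls on log2(FPKM + 1). Over all genes, 1945 rose and 3179 fell on log2(FPKM + 0.1), of 14893. Without O/A replicate 2, 2326 rose and 2658 fell, of 14702. On log2(FPKM + 1), 1514 rose and 2409 fell, of 14893. Without 1 library 4945 to 5071 genes passed.

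Whether libraries with the same replicate number were run as a pair is not given in the sample labels. Their deviations from the condition means correlated at 0.039, -0.0021, -0.023 and 0.068, which cannot settle it. A fit that held the replicate as a block called 5160 genes, 5117 of them shared with the fit without it, and 8 of the 10. The ratios kept their direction without 1 library, at 0.12 to 0.16 for EPAS1 to HIF1A, -1.03 to -0.69 for EGLN3 to EGLN1 and -0.37 to -0.28 for ARNT to HIF1A, where 3 against 4 cannot give a p under 0.0571. Depth limits EGLN3 and ANKRD37, which had 15 to 33 counts per O/A library, and RAB20, which had 10 to 33.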
